A study of Rattus norvegicus with 4 samples.

Results

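Transcripts of the mitochondrial protein import machinery were compared between INS-1 832/3 cells, an insulin-secreting line from a rat insulinoma, grown in a 3D-bioprinted hydrogel and the same line grown as a standard 2D monolayer. Genes were chosen by symbol: Timm and Tomm genes, Pam16, Dnajc15, Dnajc19, Grpel genes, Samm50, Mtx1 to Mtx3, Chchd4, Pmpca, Pmpcb and Immp genes with a mean of at least 1 TPM (an abundance corrected for transcript length that sums to 1000000 per sample). The pattern matched 36 symbols, and 34 of them passed, of 23360 symbols listed and 11960 that passed the same filter. The other two were Chchd4, the intermembrane space oxidoreductase, which was listed at 0 TPM in all 4 samples, and Timm8a2, whose mean was 0.0292 TPM. Chchd4 was listed with 1 transcript, and whether the gene was silent or its reads were not assigned to that transcript was not tested. Each of the 34 genes was above 1 TPM in all 4 samples, with the lowest scaled value, 4.30 TPM, in Tomm40l, so none passed through 1 group alone. Timm23, Timm17b, Immp2l and Tomm20l were not among the 36 symbols matched, and so were not analysed here.

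Polyadenylated RNA was sequenced from 2 monolayer (2D) and 2 bioprinted (3D) cultures, described in the labels as biological replicates. All 4 were taken after 5 days in culture at passage 3 and kept in the same supplemented RPMI medium. The 3D cells were printed in GelXA LAMININK 411, a gelatin-based hydrogel with laminin-411, while the 2D cells were seeded without hydrogel. Printing, matrix and geometry therefore changed together and cannot be told apart, and a single established line was used.

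Between 19355 and 19959 of 31201 transcripts were above 0 in each sample, and no value above 0 was identical between samples. All 9 beta cell markers were above 1 TPM, and their sum was 147395 and 160339 TPM in 2D and 157817 and 170458 TPM in 3D. Ins1 made up most of it (114003 and 126460 TPM in 2D, 127527 and 137822 TPM in 3D). These are deposited TPM, not scaled between samples. Single markers differed: Iapp, Slc2a2 and Pcsk2 were higher in both 3D cultures, and Chga and Neurod1 overlapped. Ins1 and Nkx6-1 were higher in both 3D cultures as deposited, but overlap once divided by the scaling factors used below. Ins2 (13237 and 13340 TPM in 2D, 8957 and 9326 TPM in 3D) and Pdx1 were lower in both 3D cultures. No test of single markers is given here. By scaled TPM, 37.7% of all genes tested were higher in both 3D cultures and 37.9% lower. Fibroblast markers summed to between 1.89 and 2.35 TPM, endothelial markers to between 0.973 and 1.49 TPM and leukocyte markers to between 0.516 and 1.45 TPM, with Pdgfrb, Dcn, Cdh5 and Ptprc at 0. Nearly all of the fibroblast sum came from Pdgfra (1.87 to 2.32 TPM) and of the endothelial sum from Kdr (0.965 to 1.48 TPM). Both were higher in both 3D cultures. Among markers of other islet cells, Gcg, the glucagon gene, was at 41.9 and 73.8 TPM in 2D and at 124 and 155 TPM in 3D, whereas Sst and Ppy were at or under 0.299 TPM. The part of Gcg-expressing cells in the results was not tested.

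Most mitochondrial proteins are encoded in the nucleus, made in the cytosol and imported. They pass the outer membrane through the TOM complex, and are then handed to SAM for insertion of barrel proteins, to small TIM chaperones and TIM22 for carriers, or to TIM23 and its Hsp70-driven motor for proteins with a cleavable presequence, which peptidases remove. In beta cells, mitochondrial metabolism couples glucose to insulin secretion.

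Promoters of nuclear genes for mitochondrial proteins often hold binding motifs of NRF1, ETS factors such as GABP, and YY1, and 5 stretches of 250 bases before the gene start are shown to let the pair Grpel1 and Grpel2, and genes with unlike changes, be read side by side. They come from RefSeq (build GRCr8) and run 5′ to 3′ on the gene's strand. Capitals mark matches to NRF1 (GCGCANGCG), ETS (CCGGAAG) or YY1 (AAGATGGCG), read on both strands. Grpel1 lies at chr14:78522869-78523118 on the minus strand, Grpel2 at chr18:57450409-57450658 on the minus strand, Tomm20 at chr19:71832421-71832670 on the minus strand, Timm8b at chr8:59850487-59850736 on the plus strand and Immp1l at chr3:112839889-112840138 on the plus strand.
Grpel1: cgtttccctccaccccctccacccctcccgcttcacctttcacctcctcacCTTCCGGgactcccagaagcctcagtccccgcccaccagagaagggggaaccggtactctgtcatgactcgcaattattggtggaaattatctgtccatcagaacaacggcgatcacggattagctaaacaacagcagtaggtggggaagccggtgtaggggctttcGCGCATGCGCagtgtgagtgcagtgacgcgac
Grpel2: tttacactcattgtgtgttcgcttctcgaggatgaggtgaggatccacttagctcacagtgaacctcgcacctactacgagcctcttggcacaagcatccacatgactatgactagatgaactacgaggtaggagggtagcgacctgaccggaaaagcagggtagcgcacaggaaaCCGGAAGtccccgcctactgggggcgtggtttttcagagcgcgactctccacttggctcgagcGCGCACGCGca
Tomm20: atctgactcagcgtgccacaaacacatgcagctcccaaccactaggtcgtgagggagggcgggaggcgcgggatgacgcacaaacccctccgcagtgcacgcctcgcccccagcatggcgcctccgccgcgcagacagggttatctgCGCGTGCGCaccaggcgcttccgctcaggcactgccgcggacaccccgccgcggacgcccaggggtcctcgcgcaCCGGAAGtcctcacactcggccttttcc
Timm8b: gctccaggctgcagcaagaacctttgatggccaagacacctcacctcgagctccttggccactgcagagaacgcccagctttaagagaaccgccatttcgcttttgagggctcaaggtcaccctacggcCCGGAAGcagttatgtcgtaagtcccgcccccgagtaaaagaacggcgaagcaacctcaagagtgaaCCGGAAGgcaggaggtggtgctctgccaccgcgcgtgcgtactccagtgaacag
Immp1l: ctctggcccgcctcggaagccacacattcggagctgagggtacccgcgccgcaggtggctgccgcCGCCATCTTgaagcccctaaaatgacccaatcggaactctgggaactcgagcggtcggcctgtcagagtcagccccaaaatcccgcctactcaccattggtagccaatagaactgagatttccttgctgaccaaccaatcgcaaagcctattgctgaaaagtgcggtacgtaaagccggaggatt

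Grpel1, Grpel2 and Tomm20 each hold both an NRF1 and an ETS match before the start. In Grpel1 the NRF1 match is its own reverse complement over 10 bases and is counted on both strands, so that these matches overlap. Timm8b holds 2 ETS matches, and Immp1l holds 1 YY1 match and neither of the other two. Of these 5 genes, Grpel1, Timm8b and Immp1l fell in 3D culture and Grpel2 and Tomm20 did not pass the test, with the values given below by role.

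Windows of 300 bases, which add 50 bases after the start, were found for 31 of the 34 genes. Dnajc15, Timm29 and Tomm34 were not matched. The ETS letters were present in 13 of the 31 windows (41.9%), against 18.1% of 9833 windows of tested genes and 8.75% of all 33469 windows. NRF1 letters were present in 6 (19.4%), against 13.9% and 5.80%, YY1 letters in 3 (9.68%), against 3.90% and 1.73%, and the E-box CACGTG in 4 (12.9%), against 9.48% and 6.42%. The ETS letters were in 6 of the 20 windows of genes that fell and in 7 of the other 11. A match describes the letters in the window, not a bound site.

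Transcripts of import genes were mostly lower in 3D culture. Of the 34 genes, 21 fell, 1 rose and 12 did not pass the test, with limma and a threshold of 0.05 on p adjusted over all genes tested. Among all 11960 genes, 37.9% passed, 19.3% lower and 18.5% higher in 3D, and among those with a mean of at least 5 TPM, a level which all 34 genes reached, 22.6% were lower. The median log2 fold change (3D minus 2D, on the log2(scaled TPM + 1) scale, which understates changes of low genes) was -0.27 over the import genes, from -0.98 in Immp1l to 0.83 in Mtx3, and -0.00053 over all genes tested. Both 3D cultures lay under both 2D cultures in 27 of the 34 genes, against 37.9% of all genes tested, and over both in 3, against 37.7%. The falls were modest: 15 genes lost more than 20% of their 2D mean.

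Each culture was left out in turn. Such a fit holds 1 culture in an arm, which is assumed to vary like the cultures of the other group. Calls from such fits rest on that assumption. Without 3D replicate 1 or without 3D replicate 2 no import gene passed in limma, and few of all genes tested did. Without 2D replicate 2, fewer import genes and fewer of all genes passed than with all 4 cultures. The median log2 fold change of the import genes was -0.25 without 3D replicate 1 and -0.29 without 3D replicate 2. It was -0.34 without 2D replicate 1 and -0.21 without 2D replicate 2, against -0.27 with all 4 cultures. All 21 genes that fell kept a negative log2 fold change in each of these 4 fits. In RNA from whole cultures, fewer cells of a type and less RNA per cell cannot be told apart.

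**Figure D1:**
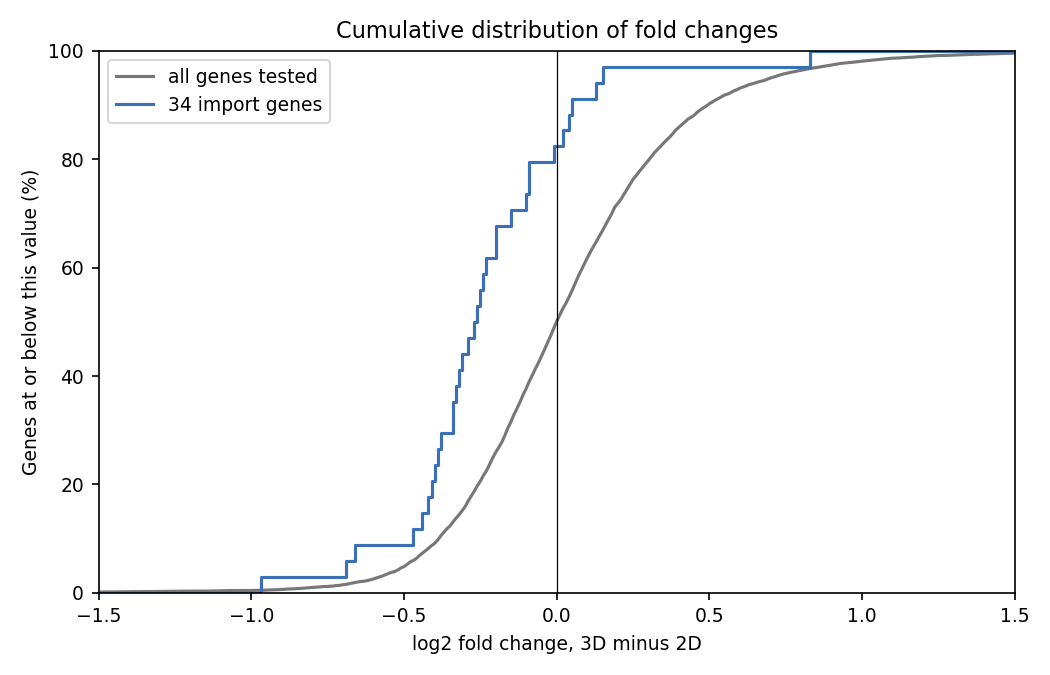
Cumulative share of genes (%, vertical axis) at or under each log2 fold change, 3D minus 2D (horizontal axis), for the 34 import genes (blue steps) and all 11960 genes tested (grey). The import curve lies to the left of the grey curve, with a median of -0.27, and 28 of the 34 genes are under 0.

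The summed scaled TPM of the 34 genes was 4816 and 5124 in the 2D cultures and 3999 and 3943 in the 3D cultures. Both 3D sums were under both 2D sums, at a ratio of means of 0.799 (4970 ± 218 in 2D and 3971 ± 39.2 in 3D, SD, n = 2 each). With 2 against 2, an exact two-sided permutation test gives at least p = 0.333, which was the value here. Tomm6 alone made up 45.6% of the sum in 2D and 42.9% in 3D. Without Tomm6 and Tomm7 the sums were 2032 and 2174 in 2D and 1803 and 1784 in 3D, a ratio of 0.853.

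By level per transcript length, Tomm6 stood first, with a 2D mean of 2266 scaled TPM, followed by Tomm7 with 600.2 and Tomm20 with 271. Timm17a (157 ± 7.09), Timm13 (144 ± 13.4) and Tomm22 (143 ± 7.84 scaled TPM, SD, n = 2) came next in 2D. The spread of Timm13 overlapped those of both neighbours, whereas both values of Timm17a were above both values of Tomm22. The lowest were Mtx3 (5.43 ± 1.56), Tomm40l (6.51 ± 0.0821) and Dnajc19 (11.5 ± 0.621). Of the 34 genes, 30 were above the median level of tested genes, 16.1 scaled TPM.

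**Figure D2:**
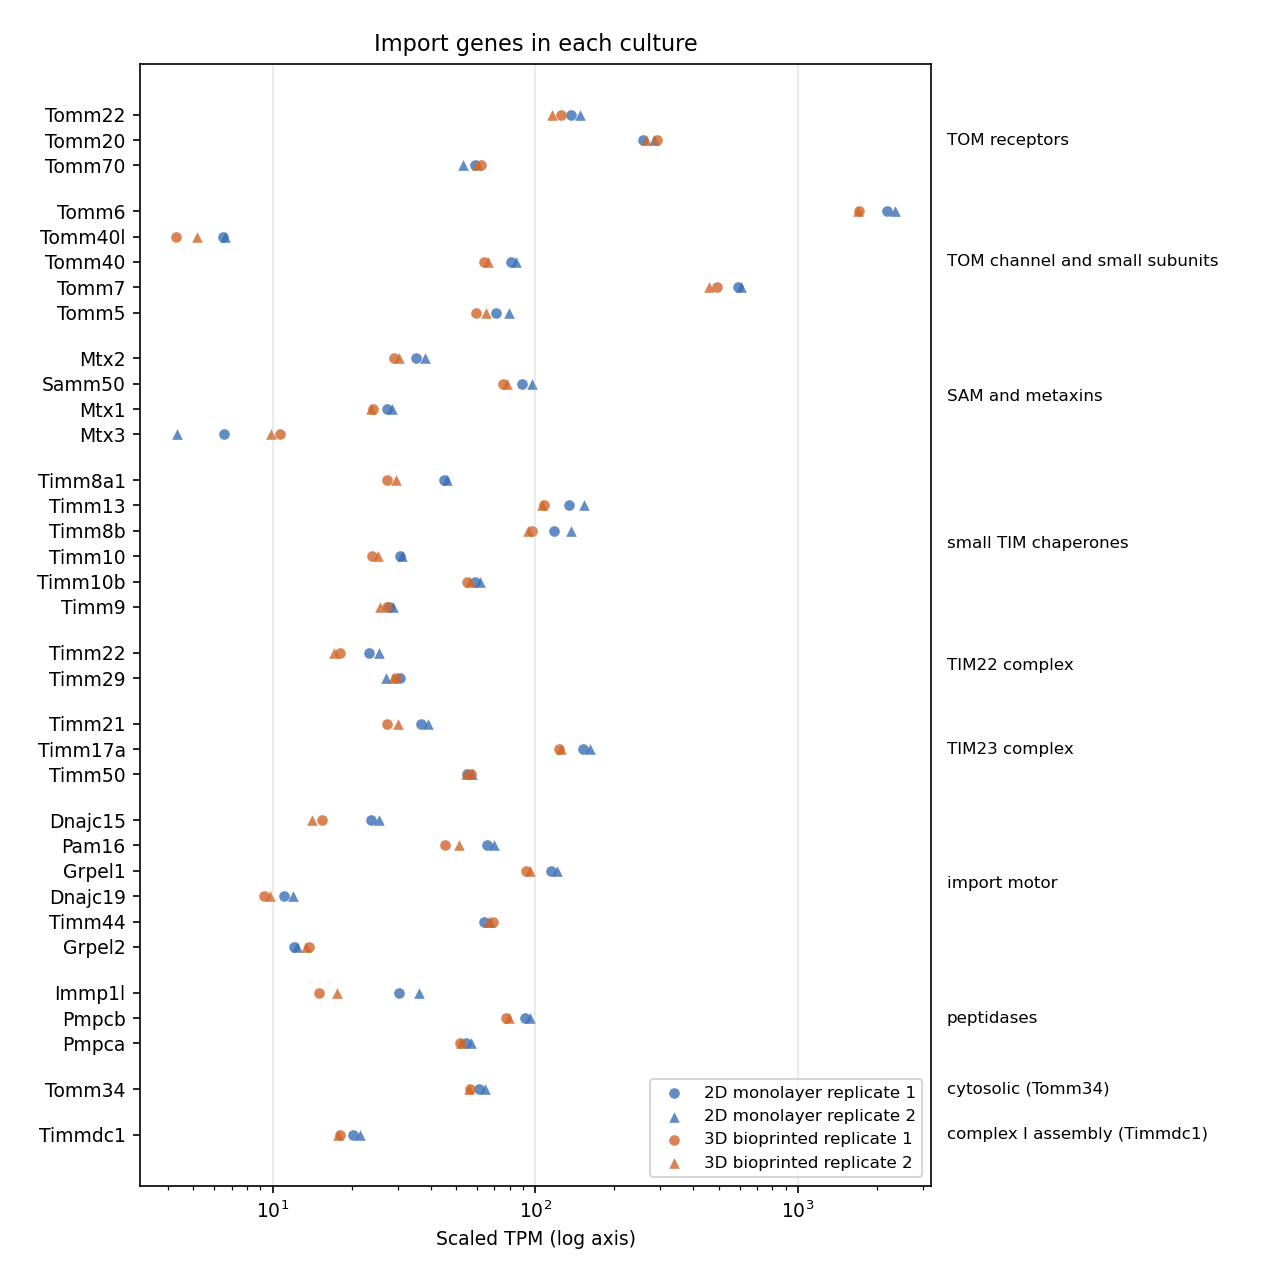
Scaled TPM (horizontal log axis) of the 34 import genes in each of the 4 cultures, grouped by role; circles are replicate 1 and triangles replicate 2, blue for 2D and orange for 3D. Levels run from Mtx3 and Tomm40l at the left to Tomm6, at 1702 TPM or more, at the right, and the orange points lie to the left of the blue ones in 27 genes and to the right in Mtx3, Tomm70 and Grpel2.

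All 5 genes of the TOM channel and its small subunits fell in 3D. Tomm6, a small subunit that steadies the complex, was at 2192 and 2341 scaled TPM in 2D and at 1703 and 1702 in 3D. After scaling, the 3D cultures were nearly equal and lay under both 2D cultures (log2 fold change -0.41, standard error 0.07, adjusted p = 0.010). Before scaling, Tomm6 was at 2212 and 2255 TPM in 2D and at 1714 and 1739 TPM in 3D. Tomm40, the channel through which nearly all precursors pass, was at 80.6 and 84.4 scaled TPM in 2D and at 63.6 and 66.1 in 3D, with no overlap (-0.34, standard error 0.06, adjusted p = 0.0102). Its less abundant relative Tomm40l was at 6.45 and 6.57 in 2D and at 4.30 and 5.17 in 3D, and fell by 0.39 on the log2 scale (adjusted p = 0.0343). The small subunits Tomm7 (600.2 to 475 scaled TPM, log2 fold change -0.34) and Tomm5 (75.0 to 62.2, -0.27, adjusted p = 0.0471) also fell. The calls of Tomm5 and Tomm40l were near the threshold: they passed in 3 and in 5 of 8 other settings. These were no scaling, median-of-ratios scaling, no filter, a mean of at least 5 TPM and a pseudocount of 0.1. The rest were a replicate block, no intensity trend and the most abundant transcript alone, the last chosen after seeing the data. Fits with 1 culture left out are not among the 8. The log2 ratio of Tomm40 to Tomm40l was 3.45 and 3.50 in 2D and 3.61 and 3.44 in 3D, so that the groups overlapped (exact p = 1, permutation test).

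Of the 3 TOM receptors, which bind precursors on the cytosolic side, only Tomm22 passed, with the differences between receptors themselves not tested beyond the pair given here. Tomm22, the central receptor that also organises the complex, was at 137 and 148 scaled TPM in 2D and at 125 and 116 in 3D. Both 3D values were lower (log2 fold change -0.24, standard error 0.07, adjusted p = 0.0426), and the call held in 5 of 8 other settings. Tomm20, the presequence receptor, was at 258 and 283 scaled TPM in 2D and at 291 and 264 in 3D. These groups overlapped, and the 95% interval of the log2 fold change ran from -0.15 to 0.23 (adjusted p = 0.725). Tomm70, which receives carrier precursors and docks cytosolic chaperones, was at 59.2 and 52.9 scaled TPM in 2D and at 62.4 and 59.8 in 3D, an interval from -0.06 to 0.31 with both 3D values higher. Between the receptors, Tomm20 to Tomm70 had a log2 ratio of 2.11 and 2.40 in 2D and 2.20 and 2.12 in 3D, and the groups overlapped (exact p = 1, permutation test). Tomm34, a cytosolic co-chaperone of precursors rather than a part of TOM, had a log2 fold change of -0.15 (62.8 to 56.4 scaled TPM, adjusted p = 0.0862).

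In the SAM complex and the metaxins, which insert barrel proteins into the outer membrane, 3 genes fell and 1 rose. Samm50, the barrel that carries out the insertion, was at 88.9 and 96.9 scaled TPM in 2D and at 75.3 and 78.3 in 3D, with no overlap (log2 fold change -0.27, standard error 0.06, adjusted p = 0.0259). Mtx2, a cytosol-facing partner of SAM, was at 35.3 and 38.1 in 2D and at 29.0 and 30.4 in 3D (-0.30, adjusted p = 0.0217). Mtx1, its partner metaxin, was at 27.2 and 28.4 in 2D and at 24.1 and 23.8 in 3D. It had the smallest fall among the genes called (-0.21, adjusted p = 0.0416), and passed in 4 of 8 other settings. Mtx3, a less studied metaxin, went the other way: it was at 6.54 and 4.33 scaled TPM in 2D and at 10.7 and 9.83 in 3D. Both 3D values were above both 2D values, and Mtx3 was the 1 import gene that rose (log2 fold change 0.83, standard error 0.17, adjusted p = 0.0176). The 2D cultures differed widely from each other, and the call was lost without the filter on low genes (adjusted p = 0.0553). Relative to Mtx2, Mtx1 had a log2 ratio of -0.36 and -0.41 in 2D and -0.26 and -0.34 in 3D (exact p = 0.333, permutation test).

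Of the 6 small TIM chaperones, which escort hydrophobic precursors across the intermembrane space, 4 fell. Timm8a1, the rat counterpart of the gene affected in deafness-dystonia syndrome, was at 44.9 and 46.2 scaled TPM in 2D and at 27.3 and 29.5 in 3D. The groups were far apart, and their log2 difference of -0.66 (standard error 0.06) had an adjusted p of 0.0042, the smallest among the 34 genes. Timm13, its partner chaperone, was at 135 and 154 scaled TPM in 2D and at 108 and 106 in 3D (-0.42, adjusted p = 0.0124). Timm8b, the other Timm8 gene, was at 118 and 137 in 2D and at 96.9 and 94.1 in 3D (-0.41, adjusted p = 0.0157). Both genes showed a wider spread in 2D than in 3D, with no overlap. Timm10, which forms the main carrier chaperone with Timm9, went from 30.9 to 24.6 scaled TPM (-0.32, adjusted p = 0.0137), whereas Timm9 went from 28.3 to 26.5, with an interval of the log2 fold change from -0.25 to 0.07. Timm10b, which ties the chaperones to TIM22, had an interval from -0.25 to 0.03 (60.3 to 55.8 scaled TPM). The log2 ratio of Timm8a1 to Timm8b was -1.38 and -1.54 in 2D and -1.79 and -1.64 in 3D, lower in both 3D cultures by 0.25 on average (exact p = 0.333, permutation test).

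In TIM22, the inner membrane complex that inserts carriers, the channel gene Timm22 was at 23.3 and 25.5 scaled TPM in 2D and at 18.1 and 17.1 in 3D. It fell without overlap (log2 fold change -0.45, standard error 0.07, adjusted p = 0.0102). Timm29, a subunit that links TIM22 to TOM, was at 30.6 and 27.1 in 2D and at 29.6 and 28.8 in 3D. Both 3D values lay between the 2D values, with an interval of the log2 fold change from -0.17 to 0.21. Timmdc1 carries the Timm name but is an assembly factor of respiratory complex I, and was at 20.3 and 21.4 scaled TPM in 2D and at 18.0 and 17.8 in 3D. Both 3D values were lower, at an adjusted p of 0.0501 that just missed the threshold (log2 fold change -0.21).

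In TIM23, the presequence translocase, 2 of the 3 genes matched fell, and Timm23 itself was not among those matched. Timm17a, a channel subunit, was at 152 and 162 scaled TPM in 2D and at 123 and 125 in 3D, and fell by 0.34 on the log2 scale (standard error 0.06, adjusted p = 0.0103). Timm21, which connects TIM23 to TOM and to the respiratory chain, was at 36.7 and 39.0 in 2D and at 27.4 and 29.9 in 3D, with -0.39 (adjusted p = 0.0127). In both genes the groups were apart. Timm50, the receptor that keeps the channel closed between precursors, was at 55.2 and 57.6 in 2D and at 56.9 and 54.3 in 3D. Its groups overlapped, and the interval of its log2 fold change ran from -0.16 to 0.12.

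The import motor, which pulls precursors into the matrix with mitochondrial Hsp70, was split: 3 of 6 genes fell. Dnajc15, a J protein also known as MCJ, was at 23.7 and 25.4 scaled TPM in 2D and at 15.5 and 14.1 in 3D. Its mean decreased by 39.7% (log2 fold change -0.69, standard error 0.08, adjusted p = 0.0048). Its relative Dnajc19 was at 11.1 and 11.9 in 2D and at 9.30 and 9.79 in 3D, lower in both 3D cultures without passing (-0.24, adjusted p = 0.0533). Pam16, a J-like protein that restrains the J protein of the motor, was at 65.6 and 69.6 in 2D and at 45.3 and 51.4 in 3D, and fell by 0.48 on the log2 scale (adjusted p = 0.0102). The nucleotide exchange factor Grpel1, which resets Hsp70, was at 115 and 121 scaled TPM in 2D and at 92.1 and 95.6 in 3D (-0.33, standard error 0.06, adjusted p = 0.0108). The second exchange factor Grpel2 was at 12.1 and 12.4 in 2D and at 13.7 and 13.5 in 3D. Both 3D values of Grpel2 were higher, with an interval of the log2 fold change from -0.02 to 0.30 (adjusted p = 0.139). Timm44, which tethers Hsp70 to the channel, was at 63.7 and 67.5 in 2D and at 69.0 and 66.1 in 3D, with an interval from -0.11 to 0.19 and overlapping groups.

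The largest differences between pairs of related genes were found in the motor. The log2 ratio of Grpel1 to Grpel2 was 3.15 and 3.18 in 2D and 2.66 and 2.74 in 3D, a difference of -0.47. For Dnajc15 to Dnajc19 the log2 ratio was 1.03 and 1.03 in 2D and 0.68 and 0.49 in 3D, a difference of -0.45. In both pairs the groups were apart by more than the spread within them. Of the 7 pairs compared, 5 had an exact p of 0.333, the smallest possible with 2 against 2 (0.467 adjusted over the 7 pairs). Groups this small are often apart: among single genes, 37.9% of all tested had both 3D values under both 2D values and 37.7% had them above.

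**Figure D3:**
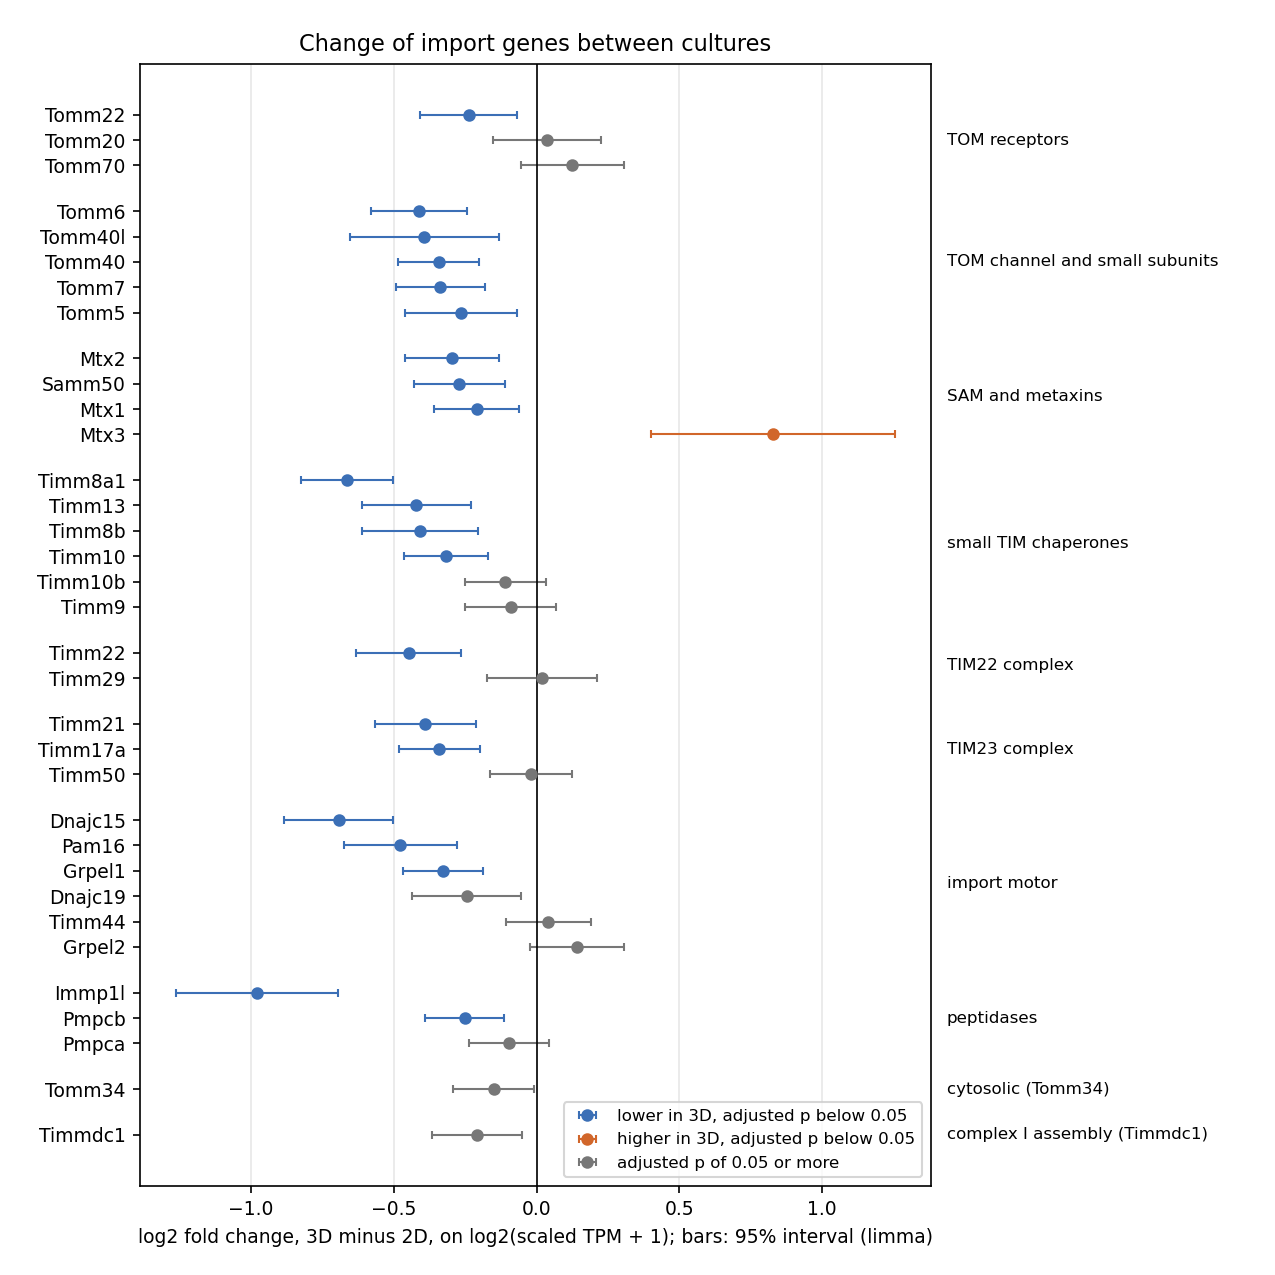
Log2 fold change, 3D minus 2D, on the log2(scaled TPM + 1) scale (horizontal axis) of the 34 import genes, grouped by role; points are limma estimates and bars 95% intervals, blue for genes that fell, orange for Mtx3 and grey for genes that did not pass. The 5 channel and small TOM subunits lie between -0.41 and -0.27, while Tomm20, Timm29, Timm50 and Timm44 lie within 0.05 of 0.

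Of the 3 peptidase genes, 2 fell. Immp1l, a catalytic subunit of the inner membrane peptidase, was at 30.3 and 36.1 scaled TPM in 2D and at 15.1 and 17.6 in 3D. It had the largest fall of the 34 genes, and its mean decreased by 50.8% (log2 fold change -0.98, standard error 0.11, adjusted p = 0.0052). Pmpcb, the catalytic subunit of the matrix processing peptidase, was at 91.2 and 96.0 in 2D and at 77.3 and 79.5 in 3D (-0.25, standard error 0.06, adjusted p = 0.0208). Its non-catalytic partner Pmpca was at 54.3 and 57.2 in 2D and at 51.7 and 52.3 in 3D, with an interval of the log2 fold change from -0.24 to 0.04. All 3 genes had both 3D values under both 2D values. The log2 ratio of Pmpca to Pmpcb was -0.74 in both 2D cultures and -0.57 and -0.59 in 3D (exact p = 0.333, permutation test).

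Single transcripts were compared for genes listed with several, an analysis chosen after seeing the data. Of the 34 genes, 26 were listed with 1 transcript and 8 with more. In 5 of these 8, at least 2 transcripts had a mean of at least 1 TPM. In a fit over 15020 transcripts, scaled on their own, of which 23.6% passed, 3 of the 15 tested transcripts of the 8 genes passed, and they belonged to Dnajc15, Grpel1 and Timm50. Transcript ENSRNOT00000008932.5 of Grpel1 was at 74.3 and 80.9 scaled TPM in 2D and at 59.3 and 54.4 in 3D, and fell (log2 fold change -0.44, standard error 0.07, adjusted p = 0.0251). Transcript ENSRNOT00000082180.1 of Grpel1 was at 41.7 and 40.8 in 2D and at 32.3 and 40.6 in 3D, with an adjusted p of 0.297.

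The gene sum of Timm50 did not pass the test, whereas 1 of its transcripts did. Its main transcript ENSRNOT00000057096.4 made up 93.7% and 94.2% of the Timm50 TPM in 2D and 84.0% and 87.8% in 3D. It was at 52.0 and 54.6 scaled TPM in 2D and at 47.5 and 47.4 in 3D, lower in both 3D cultures without passing (log2 fold change -0.16, 95% interval from -0.31 to -0.02, adjusted p = 0.0894). Transcript ENSRNOT00000093205.1 was at 3.01 and 3.09 scaled TPM in 2D and at 6.11 and 5.21 in 3D, and rose (log2 fold change 0.71, standard error 0.12, adjusted p = 0.0241). Transcript ENSRNOT00000093657.1 was at 0.473 and 0.270 in 2D and at 2.91 and 1.36 in 3D (adjusted p = 0.0578). Both minor transcripts were higher in each 3D culture than in either 2D culture.

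**Figure D4:**
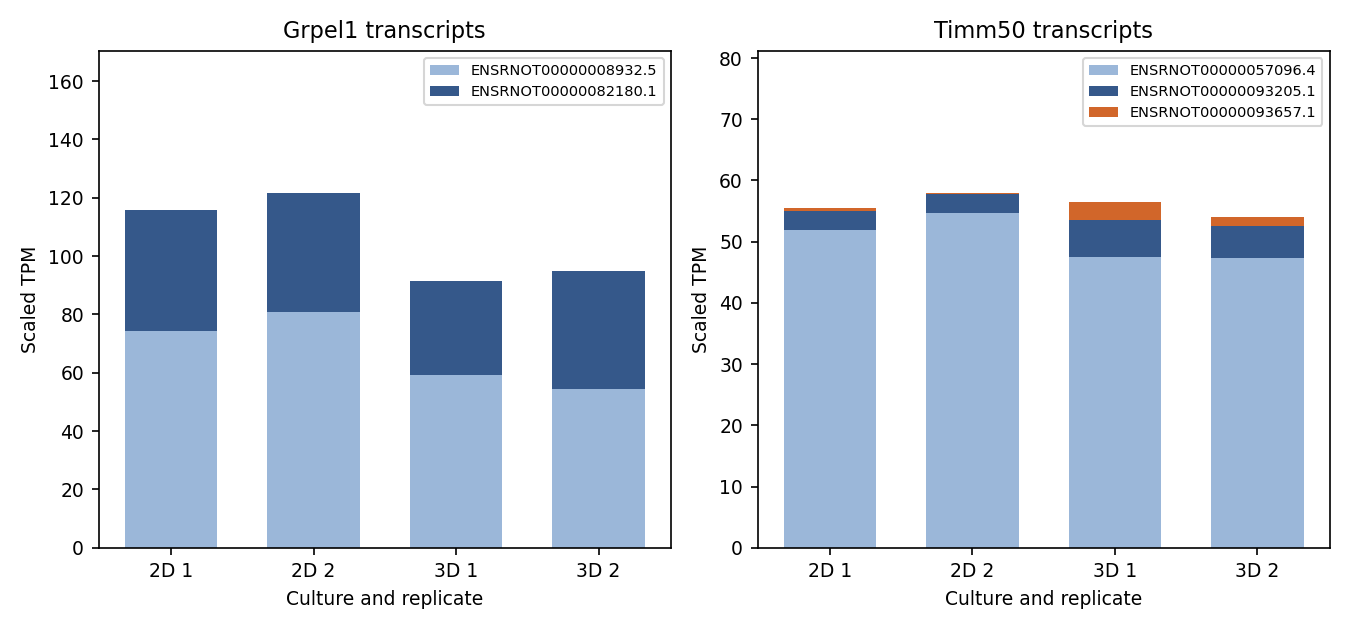
Scaled TPM (vertical axis, from 0) of the transcripts of Grpel1 (left) and Timm50 (right) in each culture, stacked per culture. The Grpel1 bars are shorter in 3D, mostly in transcript ENSRNOT00000008932.5, while the Timm50 bars are of like height and the minor transcripts take more of them in 3D.

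Partner genes outside the symbol rule were read from 3 lists. Of 19 tested genes for other import and maturation steps, 6 fell (31.6%, against 19.3% of all genes tested), 1 rose (5.26%, against 18.5%) and 12 did not pass, with a median log2 fold change of -0.12. Hspd1, the matrix chaperonin, was at 376 and 371 scaled TPM in 2D and at 290.2 and 276 in 3D (-0.40, adjusted p = 0.0069). Dnaja3, a matrix J protein, was at 60.7 and 59.3 in 2D and at 46.0 and 45.8 in 3D (-0.38, adjusted p = 0.0071). Dnlz, Aifm1, Mtch2 and Hspe1 also fell. Hspa9, the mitochondrial Hsp70 of the motor itself, was at 189 and 193 scaled TPM in 2D and at 246 and 230.3 in 3D. It rose (log2 fold change 0.32, adjusted p = 0.0125). Of the 6 motor genes described above, Grpel1, Pam16 and Dnajc15 fell, and Grpel2, Timm44 and Dnajc19 did not pass.

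Most CX9C proteins are small intermembrane space proteins folded by the Chchd4 relay. The list also holds Chchd1, a subunit of the mitochondrial ribosome. Of 14 tested, 7 fell (50%, against 19.3% of all genes tested), 7 did not pass and 0 rose in limma (against 18.5%, with 0 higher also at an unadjusted p under 0.05), with a median of -0.26. Cmc2, an assembly factor of cytochrome oxidase, was at 161 and 196 scaled TPM in 2D and at 95.5 and 112 in 3D (log2 fold change -0.77, adjusted p = 0.0090). Chchd1 was at 108 and 118 in 2D and at 89.2 and 78.8 in 3D (-0.42, adjusted p = 0.0156). Chchd3, Chchd5, Coa4, Coa6 and Triap1 fell as well.

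Most Slc25 carriers are inserted into the inner membrane by TIM22, although the list, taken by symbol, also holds the peroxisomal Slc25a17 and the outer membrane Slc25a46. Of 36 tested, 6 fell (16.7%, against 19.3% of all genes tested), 3 rose (8.33%, against 18.5%) and 27 did not pass, with a median log2 fold change of 0.08. Slc25a36, a pyrimidine nucleotide carrier, was at 36.0 and 29.3 scaled TPM in 2D and at 70.2 and 59.7 in 3D (0.97, adjusted p = 0.0061). Slc25a23, a calcium-regulated carrier of ATP-Mg and phosphate, was at 44.5 and 43.3 in 2D and at 58.5 and 55.2 in 3D (0.37, adjusted p = 0.0097). Their 3D values were above all 2D values. Without 3D replicate 1 or without 3D replicate 2, few of all genes tested passed in limma, so calls in the 3 lists are not read from these fits. Without 2D replicate 2, fewer genes of each list fell than with all 4 cultures, as was so for all genes tested. Calls from these fits were not compared between the lists, which differ in length.

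Some of these levels are uncertain by annotation. Named pseudogenes exist in RefSeq for 8 of the 34 genes, 14 in all: Tomm7, Tomm20, Timm8a1, Pmpcb, Timm17a, Timm21, Tomm5 and Tomm70. Reads of a near-identical copy could be divided between gene and copy. The spans of 10 genes overlap another coding gene, among them Grpel1 with Tada2b, Timm8b with Nkapd1, Tomm20 with Rbm34 and Tomm40l with Nr1i3. The libraries were made with a kit that keeps strand, and how strand was used in quantification was not given in the sources used here.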

How the data were processed

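Messenger RNA of 2 monolayer and 2 bioprinted INS-1 832/3 cultures was sequenced with 75-base single-end reads, grouped as the labels say. The authors checked reads with FastQC 0.11.8, quantified them per transcript with Salmon 1.2 against rn4 plus the human insulin gene, and deposited TPM, which sum to 1000000 per sample and keep no depth, so no counting interval can be attached, and 2 cultures per group set the precision. The study's count-based test could not be run on TPM.

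TPM were summed per symbol, genes with a mean of at least 1 kept, and samples scaled by trimmed means of their log ratios, unweighted (fractions of 0.3 by ratio and 0.05 by level left out on both sides, factors 0.963 to 1.02). Then log2(scaled TPM + 1) was tested with limma 3.58.1 in R 4.3.3 (empirical Bayes, intensity trend), with Benjamini-Hochberg adjustment over 11960 genes. Sums and ratios were compared by exact permutation tests over samples. The steps were tested on simulated data. The genes and lists were chosen with earlier results of these data known. Every import gene is named. Values of each culture are given for the most abundant and the smallest-p gene of each role, for genes that rose and for pairs, and for the 2 smallest p of each further list. Alternatives were the scaling, the filter, the pseudocount, the replicate block, the trend, the threshold, single transcripts and each culture left out. Promoter windows are from RefSeq GRCr8, used only for sequences and names of neighbours. Protein sequences were not used here. A marker of other islet cells is not reported here.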

Additional observations from a re-analysis of the deposited data

How the results depend on the processing

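All 21 genes that fell, and Mtx3, kept their direction in every setting. The 21 became 18 without scaling, 20 with median-of-ratios scaling, 18 without the filter, 21 at a mean of at least 5 TPM, 23 with a pseudocount of 0.1, 18 without the intensity trend and 3 at an adjusted p below 0.01. In the same order, the genes lower over the whole table went from 2310 of 11960 to 1812, 2266, 2082 of 16749, 2047 of 9498, 2333 and 2039. Their number at an adjusted p below 0.01 was not computed. The 1 rise among the import genes became 0 without the filter and 0 at an adjusted p below 0.01, both in limma, with 1 higher gene at an unadjusted p under 0.05. Leaving out 1 culture at a time, the median log2 fold change ranged from -0.34 to -0.21. The ratio of summed TPM ranged from 0.771 to 0.825.

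No effect shared by cultures of the same replicate number was seen (correlation of deviations -0.0059 across 11960 genes). The labels do not say whether the cultures were paired. With the number as a replicate block 20 import genes fell and 1 rose, while 2284 of all 11960 genes fell and 2405 rose. Of the Slc25 carriers, 5 rose with the block in place of 3.

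With 1 culture left out, other import and maturation genes ranged from 0 to 4 lower and 0 to 2 higher, CX9C proteins from 0 to 9 lower, and Slc25 carriers from 0 to 4 lower and 0 to 5 higher. In the same fits, the difference in log2 ratio of Tomm40 to Tomm40l ranged from -0.033 to 0.13, and that of Tomm20 to Tomm70 from -0.23 to 0.055.

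Among genes not called, Timm29 turned to -0.014 without the filter and ranged from -0.067 to 0.097 with 1 culture left out, Timm44 from -0.0077 to 0.083, Tomm20 from -0.036 to 0.11 and Timm50 from -0.057 to 0.013. Timm50 was 0.020 without scaling and 0.0044 at a mean of at least 5 TPM, and its most abundant transcript was at -0.16 in a comparison chosen after seeing the data. The cause of these changes was not tested. Without scaling the median of all genes moved to 0.04, and the calls went from 2217 higher and 2310 lower to 2258 and 1812.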
